A study of Rattus norvegicus with 32 samples.

Results

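Astrocytes were followed in bulk RNA from the hippocampus of young adult rats through 10 of their genes: Gfap, Aqp4, Slc1a2, Slc1a3, Gja1, Aldh1l1, Aldoc, Glul, S100b and Sox9. The genes were chosen by symbol, with earlier results of these data known. Each of the 10 matched 1 row of the 32883 rows in each of the count tables, 1 table for males and 1 for females, and all 10 had enough counts to be tested in every comparison. The series holds 32 libraries from Sprague-Dawley rats aged 65 days (P65), 16 from males (sequencing batch I) and 16 from females (sequencing batch II), with 4 rats in each of 4 diet groups per sex. The control group was iron sufficient (IS), ISch was iron sufficient with choline supplementation, ID was iron deficient and IDch was iron deficient with choline supplementation. For the males, the methods describe a maternal iron-deficient diet from early gestation until the end of the first postnatal week, choline given to the dams in mid to late gestation, an iron-sufficient diet afterwards, and 1 male taken per litter. The ID and IDch males were therefore formerly iron-deficient animals whose brain iron had been replenished at sampling. The paper reprocessed its RNA data from an earlier study, and it does not state separately how litters were sampled for those rats. For the females the labels state the same design, run separately, and say nothing of litters. Because every male library is in batch I and every female library in batch II, sex and sequencing batch cannot be told apart, and the diet groups were compared within each sex.

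Astrocytes clear glutamate and potassium from around synapses, supply neurons with metabolites, and wrap blood vessels with endfeet that move water. They are joined to each other by gap junctions. In the hippocampus they return glutamate to neurons as glutamine, and upon injury they enlarge and make more intermediate filament protein. The 10 genes cover these roles: the filament protein GFAP, the endfoot water channel aquaporin 4 (Aqp4), the glutamate transporters GLT-1 (Slc1a2) and GLAST (Slc1a3), connexin 43 of gap junctions (Gja1), the folate enzyme ALDH1L1, the glycolytic enzyme aldolase C (Aldoc), glutamine synthetase (Glul), the calcium-binding protein S100B and the transcription factor SOX9. Several of them are not restricted to astrocytes, since S100b and Glul are also made by oligodendrocyte lineage cells.

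The total count was 3515806 to 9517503 per library in males (median 8007907) and 18439999 to 26616318 in females (median 21747536.5). Values are given as CPM, the count relative to the library total, scaled by the trimmed mean of M values (TMM). The counts behind them were lowest for Sox9, with 55 to 246 per male library and 344 to 689 per female library, and for Aldh1l1, with 101 to 258 and 364 to 732. The shallowest library was male IDch replicate 2. The summed level of the 10 genes was between 5964 and 6986 CPM in the male libraries and between 6201 and 7898 CPM in the female ones. In a whole-tissue sample, fewer astrocytes and less RNA per astrocyte cannot be told apart.

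Markers of other cell types were summed in the same libraries. Neuronal markers (8 genes) were at 9742 to 10820 CPM in males and 9166 to 10830 CPM in females, and oligodendrocyte markers (8 genes) at 6960 to 9496 and 6452 to 9316 CPM. Blood markers (2 genes) were at 19.2 to 82.2 CPM over all libraries. Choroid plexus and ependymal markers reached 398 CPM in male ID replicate 4, of which Ttr, the main choroid plexus transcript, made up 349.9 CPM, and were at 2.83 to 19.1 CPM in the other 15 male libraries. All ID males, at 6.47 CPM or more, lay above the IS males, at 3.10 to 5.75 CPM, and above the IDch males, at 2.83 to 5.65 CPM. The ISch males, at 2.88 to 6.54 CPM, overlapped the ID males. In females, microglial markers (6 genes) were at 212.7 to 223 CPM in IS, 181.5 to 206.7 in ISch, 206.9 to 225.9 in ID and 189.9 to 197.2 in IDch, so that the libraries of both choline groups lay below all IS and ID libraries. Oligodendrocyte precursor markers (2 genes) were at 131 to 141.5 CPM in female IS, 115 to 134 in ISch, 133 to 137 in ID and 105 to 123 in IDch. Endothelial markers (5 genes) were at 252 to 266 CPM in female IS, 229 to 278 in ISch, 232 to 262 in ID and 210.5 to 235 in IDch. Whether these shifts have a part in the results on astrocyte genes was not tested.

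The levels of the 10 genes are described first, by role. Gfap (ENSRNOG00000002919) had group means between 797 and 839.8 CPM in males, in IS and ISch, and between 811 and 887 CPM in females, in ISch and IDch. Its groups overlapped in all 8 pairwise comparisons. Aqp4 (ENSRNOG00000016043) had male group means between 668 CPM (IDch) and 798 CPM (ID) and female means between 648 CPM (ID) and 800.4 CPM (IDch), so that the same pair of groups held the extremes in the opposite order.

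Among the glutamate transporters, Slc1a2 (ENSRNOG00000005479) varied most between rats of the same group. Its coefficient of variation within groups was 21.9% in males and 20.7% in females, against 4.14% to 12.3% for the other 9 genes. In male IS its level was 178, 368, 491 and 438 CPM, and in female IDch 356, 355, 369 and 163 CPM. In each of these groups, 1 rat was therefore at less than the mean of the group minus its SD, and the standard errors of the Slc1a2 fold changes were the widest of the 10. Slc1a3 (ENSRNOG00000016163) had male means between 895 (ID) and 1014 CPM (IS) and female means between 998 (IDch) and 1133 CPM (ISch). Gja1 (ENSRNOG00000000805) had the smallest within-group variation, 4.998% in males and 4.14% in females, with male means between 437 (ID) and 454 CPM (ISch) and female means between 467 (IDch) and 546 CPM (IS).

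Among the metabolic enzymes, Aldh1l1 (ENSRNOG00000047023) had male means between 23.8 ± 2.14 CPM in ISch and 28.0 ± 2.14 CPM in IS (SD, n = 4), and female means between 20.5 ± 1.29 CPM in ID and 27.8 ± 1.78 CPM in ISch (SD, n = 4). The ISch group was thus the lowest of the males and the highest of the females. Aldoc (ENSRNOG00000011452) had male means between 725 (ISch) and 812 CPM (IDch) and female means between 827 (ID) and 956 CPM (ISch). Glul (ENSRNOG00000049560) had male means between 1063 (ID) and 1260.2 CPM (IDch) and female means between 1149 (ID) and 1458 CPM (ISch). In the RefSeq annotation (GRCr8) the Glul locus overlaps Rgsl1, Rgsl2h, Teddm1b and Teddm1a, and S100b overlaps Dip2a. Whether reads were counted by strand is not given in the sources used here.

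The calcium-binding protein gene S100b (ENSRNOG00000001295) had male means between 1032 (ID) and 1132 CPM (IS) and female means between 1109.9 (ID) and 1207 CPM (ISch). Sox9 (ENSRNOG00000002607), which encodes a transcription factor needed for gliogenesis, had male means between 20.2 (IDch) and 23.8 CPM (ISch) and female means between 19.2 (IDch) and 23.9 CPM (ID). In females the ID group held the lowest mean for 5 of the 10 genes (Aqp4, Aldh1l1, Aldoc, Glul and S100b), and in males the ID group for 4 (Slc1a3, Gja1, Glul and S100b). These orders are descriptions, since neighbouring group means mostly differed by less than their SD.

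**Figure D1:**
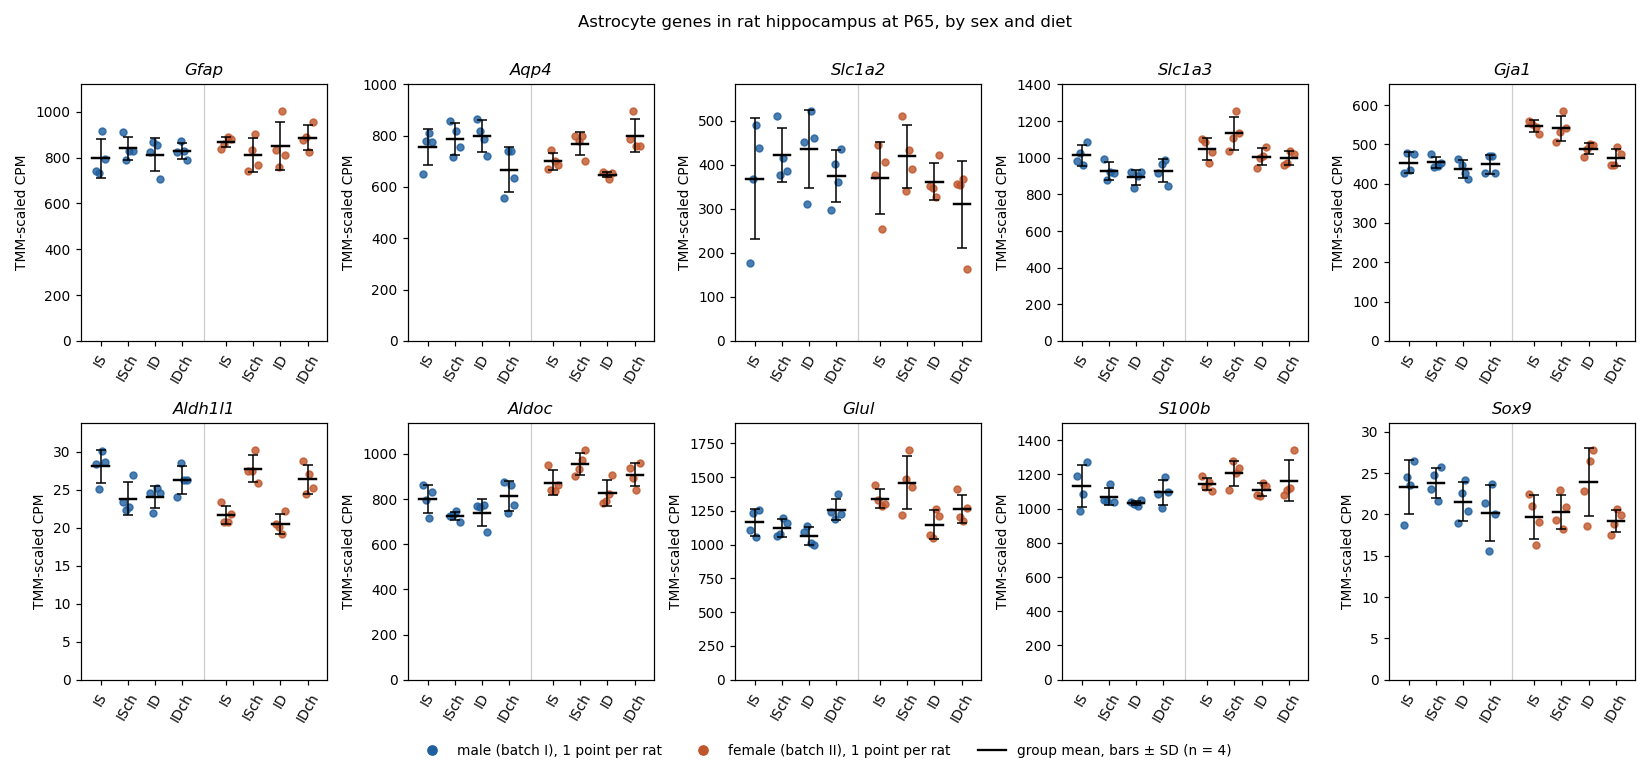
TMM-scaled CPM of the 10 astrocyte genes (y axis, from 0) by diet group (x axis), with 1 point per rat, black lines for group means and bars for the SD (n = 4). Blue points are males (batch I) and orange points females (batch II). Female Aldh1l1 stands at 25.9 to 30.2 CPM in ISch against 20.7 to 23.3 CPM in IS, and Slc1a2 holds single low rats at 178 CPM (male IS) and 163 CPM (female IDch).

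The 300 bases around the transcription start are shown for Aldh1l1, the gene at the criterion in the most comparisons, and for Slc1a3 and Gja1, the pair most closely correlated from rat to rat in females. They run from 250 bases before the start to 50 after it and come from RefSeq (GRCr8), a later build than the Rnor_6.0 used for the counts. The Aldh1l1 window is chr4:124616970-124617269 on the plus strand, the Slc1a3 window chr2:59557759-59558058 on the minus strand, the first of 3 start sites listed for that gene, and the Gja1 window chr20:36302314-36302613 on the plus strand. Capitals mark matches, on either strand, to any of 4 motifs. These were the CCAAT box, which its name spells, the core promoter element TATAAA, the STAT motif TTCNNNGAA and the SOX motif ACAAAG.
Aldh1l1: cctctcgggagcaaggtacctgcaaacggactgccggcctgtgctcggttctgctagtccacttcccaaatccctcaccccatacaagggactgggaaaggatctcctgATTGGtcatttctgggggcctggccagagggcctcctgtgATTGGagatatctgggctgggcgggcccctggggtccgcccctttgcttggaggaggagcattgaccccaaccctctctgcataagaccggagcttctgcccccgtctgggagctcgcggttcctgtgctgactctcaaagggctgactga
Slc1a3: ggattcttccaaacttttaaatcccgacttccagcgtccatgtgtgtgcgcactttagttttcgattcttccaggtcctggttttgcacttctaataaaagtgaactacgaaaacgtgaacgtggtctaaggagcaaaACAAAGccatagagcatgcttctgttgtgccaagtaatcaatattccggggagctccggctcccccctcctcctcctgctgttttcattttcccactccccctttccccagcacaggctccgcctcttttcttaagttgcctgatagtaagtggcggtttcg
Gja1: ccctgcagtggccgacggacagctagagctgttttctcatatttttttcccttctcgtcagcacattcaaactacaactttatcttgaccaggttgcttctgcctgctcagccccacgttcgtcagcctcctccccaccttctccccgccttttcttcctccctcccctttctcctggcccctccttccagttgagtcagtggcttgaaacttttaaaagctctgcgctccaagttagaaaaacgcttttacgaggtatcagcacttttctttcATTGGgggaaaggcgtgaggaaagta
Aldh1l1 has 2 CCAAT matches, Gja1 has 1, and Slc1a3 has 1 SOX match. CCAAT occurs in 37.5% of the 33469 promoter windows of the annotation and ACAAAG in 18.8%, so both are common. TATAAA (14.2% of windows) and TTCNNNGAA (8.87%) are in none of the 14 windows listed for 9 of the 10 genes. Slc1a3 and Gja1 have no motif of the 4 in common, and a match describes letters and not a bound site.

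The first question was whether prenatal choline in iron-sufficient rats went with altered levels of these genes (ISch against IS). A gene was at the criterion when its absolute log2 fold change was over 0.2 and its unadjusted p under 0.05 in edgeR's quasi-likelihood test. Benjamini-Hochberg adjusted p-values cover all genes tested. Where a share of all genes stands beside a count, it is for the criterion or the adjusted p in edgeR. Counts by unadjusted p alone or by DESeq2 have no such share, so they cannot be set against all genes. In females Aldh1l1, a folate enzyme, was higher in ISch in every rat. Its level was 23.3, 20.7, 20.8 and 21.8 CPM in the IS females and 27.5, 27.5, 30.2 and 25.9 CPM in the ISch females. All 4 ISch rats lay above all 4 IS rats. The log2 fold change was 0.36 ± 0.07 (SE), a rise of 28.0%, with adjusted p = 0.0215 in edgeR's quasi-likelihood test. The exact permutation test on the 8 values gave p = 0.029 (2-sided), the smallest that 4 against 4 allows. Leaving out 1 library left the log2 fold change between 0.32 and 0.39, and the adjusted p was over 0.05 without IS replicate 2, 3 or 4 or without ISch replicate 2 or 3, up to 0.0764. With female counts thinned to the median male total it was 0.0738.

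Aldh1l1 was the 1 gene of 10 at the criterion in female ISch against IS, where 10.3% of all genes were at it, and the 1 with an adjusted p under 0.05, against 2.54% of all genes. Of the others, Aqp4 (log2 fold change 0.13) and Aldoc (0.13) had unadjusted p under 0.05 below the fold limit, and Gja1 differed by -0.02 (95% interval -0.11 to 0.07). In all, 8 of the 10 genes had a positive log2 fold change, with a median of 0.11 beside -0.00 for all genes tested. In the same libraries the microglial sum was lower in ISch without overlap, and of its 6 markers P2ry12 (log2 fold change -0.41, adjusted p = 0.0940 in edgeR) and Cx3cr1 (-0.23, adjusted p = 0.121 in edgeR) were at the criterion. The neuronal sums, 9802 to 10190 CPM in ISch and 10040 to 10800 CPM in IS, overlapped. Of the 8 neuronal genes, 2 had a positive log2 fold change, with a median of -0.09. At the criterion there were 0 of the 8, and 1 had an adjusted p under 0.05 in edgeR. The part of these markers in the Aldh1l1 result was not tested.

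In males Aldh1l1 was at the criterion in the opposite direction. Its level was 28.3, 25.1, 30.1 and 28.7 CPM in IS males and 23.3, 22.3, 22.7 and 27.0 CPM in ISch males. A single ISch rat, at 27.0 CPM, lay within the range of the IS rats. It amounted to a log2 fold change of -0.23 ± 0.10 (SE), with adjusted p = 0.455 in edgeR's quasi-likelihood test, so the difference did not pass after adjustment. It also left the criterion without any 1 of 5 libraries (IS replicates 3 and 4 and ISch replicates 1, 2 and 3), where the log2 fold change was as near to 0 as -0.19. The endothelial sum was at 225 to 238 CPM in IS males and 203 to 224 CPM in ISch males, without overlap. Its marker Cldn5 was lower at the criterion (-0.31). Higher at the criterion were Opalin of oligodendrocytes (0.57, adjusted p = 0.114 in edgeR) and Cspg4 of their precursors (0.23, adjusted p = 0.463 in edgeR). Of the 8 oligodendrocyte genes, 3 had a positive log2 fold change. The part of these markers in the Aldh1l1 value was not tested. Aldh1l1 was the only gene of the 10 at the criterion in male ISch against IS, where 8.06% of all genes were at it. After adjustment 0 of the 10 were under 0.05, against 0.208% of all genes, 3 had an unadjusted p under 0.05 in edgeR (Slc1a3, Aldh1l1 and Aldoc, all lower), and DESeq2 also gave 0 after adjustment.

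The sexes were compared directly by a sex by diet term over the 16 IS and ISch libraries. The Aldh1l1 response to choline was 0.59 ± 0.11 (SE) higher on the log2 scale in females than in males, with adjusted p = 0.0121 in edgeR's quasi-likelihood test. It was the 1 gene of 10 with an adjusted p under 0.05, against 1.28% of all genes, and its adjusted p was between 0.00753 and 0.0380 when 1 of the 16 libraries was left out. Other cell type markers were at the criterion too, in both directions. Among them were Opalin of oligodendrocytes (-0.65, adjusted p = 0.0441 in edgeR) and Cx3cr1 of microglia (-0.27, adjusted p = 0.290 in edgeR). Neuronal Syt1 had a negative difference (-0.23, adjusted p = 0.0547 in edgeR) and endothelial Cldn5 a positive one (0.32, adjusted p = 0.193 in edgeR). The difference was positive for 4 of the 8 oligodendrocyte genes (median -0.004) and for 1 of the 6 microglial genes. It was positive for 3 of the 5 endothelial genes (median 0.05) and 3 of the 8 neuronal genes (median -0.04). The part of these markers in the Aldh1l1 difference was not tested. Aldoc (aldolase C, difference 0.27 ± 0.08 SE, adjusted p = 0.113 in edgeR) and Slc1a3 (GLAST, 0.23 ± 0.09 SE, adjusted p = 0.194 in edgeR) were at the criterion as well. That made 3 of 10 genes, beside 14.2% of all genes. For Aldoc the levels were 863, 796, 717 and 831 CPM in IS males against 726, 730.0, 746 and 699 CPM in ISch males, and 952, 841, 834 and 861.5 CPM in IS females against 904, 932, 971 and 1016 CPM in ISch females. The groups overlapped in both sexes. For Slc1a3 the levels were 981, 1028, 959 and 1086 CPM in IS males and 995, 879, 921 and 919 CPM in ISch males, with 1 of the 4 ISch rats inside the IS range. In females they were 1103, 1084, 971 and 1031 CPM in IS and 1035, 1109, 1253 and 1134 CPM in ISch, where 1 ISch rat lay inside the IS range. Without male IS replicate 4, female IS replicate 3 or female ISch replicate 3 the Slc1a3 difference left the criterion, at 0.18 in the lowest case, and without male IS replicate 3 the adjusted p of Aldoc was 0.0331. As sex and batch coincide, a difference between the sexes here is equally one between batches.

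The second question was what early iron deficiency without choline left behind at P65 (ID against IS). In females, Glul, which makes glutamine from glutamate, was lower in ID. Its level was 1444, 1333, 1286 and 1303 CPM in IS and 1071, 1049, 1263 and 1213 CPM in ID. No ID female reached the lowest IS female. On the log2 scale the difference was -0.22 ± 0.06 (SE), with adjusted p = 0.164 in edgeR's quasi-likelihood test and p = 0.029 in the exact permutation test. The change left the fold limit without IS replicate 1 or ID replicate 1 or 2, when it lay as near to 0 as -0.18. Endothelial Slc2a1 was lower at the criterion in the same rats (-0.22, adjusted p = 0.0631 in edgeR). Of the 5 endothelial genes, 1 had a positive log2 fold change, and the endothelial sums overlapped. The part of these markers in the Glul value was not tested.

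Sox9 was at the criterion in the other direction in ID females, with 22.4, 21.1, 16.3 and 19.1 CPM in IS and 22.8, 18.6, 26.5 and 27.8 CPM in ID. The groups overlapped, with 1 of 4 ID rats below 3 of the IS rats. The log2 fold change was 0.28 ± 0.12 (SE), with adjusted p = 0.431 in edgeR's quasi-likelihood test, and the gene left the criterion without any 1 of 5 libraries (IS replicates 3 and 4 and ID replicates 1, 3 and 4), with values between 0.20 and 0.38 over all omissions. So 2 of the 10 genes were at the criterion in female ID against IS, 1 in each direction, where 6.47% of all genes were.

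In ID females, Gja1 (connexin 43) and Aqp4 were below the fold limit although their groups did not overlap. Gja1 was at 561, 553, 545 and 526 CPM in IS and at 469, 488, 502 and 498 CPM in ID. It amounted to a log2 fold change of -0.16 ± 0.04 (SE), with adjusted p = 0.108 in edgeR's quasi-likelihood test. Aqp4 was at 669, 745, 700.4 and 686 CPM in IS and at 659, 649, 632 and 653 CPM in ID, a log2 fold change of -0.11 ± 0.04 (SE) with adjusted p = 0.299 in edgeR. After adjustment 0 of the 10 were under 0.05, against 0.191% of all genes. By unadjusted p under 0.05 in edgeR there were 4 (Aqp4, Gja1, Glul and Sox9), of which Sox9 ranked 1451 among the 14632 genes tested. DESeq2 gave 2 after adjustment (Gja1, -0.16 with adjusted p = 0.00788, and Glul, -0.22 with adjusted p = 0.0323). The sign was negative for 9 of the 10 genes, with a median log2 fold change of -0.07 beside 0.00 for all genes tested.

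In males the ID rats again had lower Aldh1l1 than IS, at 24.5, 21.9, 25.2 and 24.6 CPM against the 25.1 to 30.1 CPM of IS. Of the 4 ID rats, 1 lay inside the IS range, at 25.2 CPM beside the lowest IS value of 25.1. On the log2 scale the difference was -0.23 ± 0.09 (SE), with adjusted p = 0.786 in edgeR's quasi-likelihood test, and the gene left the criterion without IS replicate 3 or 4 or ID replicate 2. Endothelial Cldn5 (-0.29) and the myelin gene Mbp (-0.22) were lower at the criterion in the same rats, and their part in the Aldh1l1 value was not tested. It was 1 gene of 10 at the criterion, beside 4.62% of all genes. Slc1a3 had no overlap (923, 835, 901 and 919.7 CPM in ID against 959 to 1086 CPM in IS) and a log2 fold change of -0.18 ± 0.06 (SE), under the fold limit, with adjusted p = 0.786 in edgeR. After adjustment 0 of the 10 were under 0.05, beside 0% of all genes. In edgeR 2 of the 10 had an unadjusted p under 0.05, and DESeq2 gave 0 after adjustment.

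By the sex by diet term of ID against IS, Aqp4 was at the criterion, with a female minus male difference of -0.20 ± 0.09 (SE) in log2 fold change and adjusted p = 0.572 in edgeR's quasi-likelihood test. Male Aqp4 was at 652, 781, 811 and 776 CPM in IS and at 867, 819.6, 787 and 719.5 CPM in ID, so that the male groups overlapped. The difference left the criterion on omission of any 1 of 8 of the 16 libraries, namely male IS replicates 1, 2 and 4, male ID replicates 1, 2 and 3, female IS replicate 2 and female ID replicate 3, when it was as near to 0 as -0.12. It was 1 gene of 10 at the criterion, where 7.64% of all genes were. After adjustment 0 of the 10 were under 0.05, beside 0.0396% of all genes, with 1 at an unadjusted p under 0.05 in edgeR and 0 in DESeq2 after adjustment.

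The third comparison set rats with both exposures against controls (IDch against IS). It shares the IS libraries with the comparisons above, so the signs are given side by side and not counted as repeats. In females Aldh1l1 was again higher, at 28.7, 24.4, 27.1 and 25.2 CPM in IDch against 20.7 to 23.3 CPM in IS. All IDch rats lay above all IS rats. The log2 fold change was 0.28 ± 0.07 (SE), with adjusted p = 0.130 in edgeR's quasi-likelihood test. Gja1 was lower, at 448, 448, 494 and 475 CPM in IDch against 526 to 561 CPM in IS, again without overlap. Its log2 fold change was -0.23 ± 0.05 (SE), with adjusted p = 0.0563 in edgeR. With 1 library left out its adjusted p was between 0.0238 and 0.187, and it was under 0.05 only without IDch replicate 4. With female counts thinned to the median male total both genes left the criterion, Gja1 at -0.18 and Aldh1l1 at 0.23 with an unadjusted p of 0.0503 in edgeR. Both had p = 0.029 in the exact permutation test.

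That was 2 genes of 10 at the criterion in female IDch against IS, 1 in each direction, where 8.98% of all genes were. At an adjusted p under 0.05 edgeR gave 0 of the 10, against 0.907% of all genes, while 3 had an unadjusted p under 0.05 and DESeq2 gave 2 after adjustment (Gja1, adjusted p = 0.000558, and Aldh1l1, adjusted p = 0.0423). The third by unadjusted p was Aqp4, with a log2 fold change of 0.19 ± 0.06 (SE) and no overlap, just under the fold limit. Slc1a2 had a log2 fold change of -0.25 with a 95% interval of -0.72 to 0.22. Its low mean rested on replicate 4 at 163 CPM, as the other IDch females were at 355 to 369 CPM. The sums of microglial, oligodendrocyte precursor and endothelial markers were all lower in IDch than in IS females without overlap, with 1 of 6, 1 of 2 and 2 of 5 markers at the criterion (Cx3cr1 at -0.28, Pdgfra at -0.22, Cdh5 at -0.22 and Slc2a1 at -0.21). Their part in the Gja1 and Aldh1l1 values was not tested.

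In males 0 of the 10 genes were at the criterion in IDch against IS, beside 6.12% of all genes, and 0 had an adjusted p under 0.05, beside 0.131% of all genes. The count at an unadjusted p under 0.05 was 0 in edgeR's quasi-likelihood test, and DESeq2 gave 0 as well. The smallest p was that of Slc1a3, at 914, 967, 986 and 848 CPM in IDch against 981, 1028, 959 and 1086 CPM in IS. Its groups overlapped, with 2 of 4 IDch rats inside the IS range. It amounted to a log2 fold change of -0.12 ± 0.06 (SE), with adjusted p = 0.655 in edgeR. When IS replicate 1, IDch replicate 2 or IDch replicate 3 was left out, 1 gene came to the criterion.

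For IDch against IS, the sex by diet term put 3 of 10 genes at the criterion, beside 12.9% of all genes. Aldh1l1 differed by 0.39 ± 0.11 (SE, female minus male, adjusted p = 0.116 in edgeR's quasi-likelihood test), Aqp4 by 0.37 ± 0.12 (adjusted p = 0.175 in edgeR) and Gja1 by -0.21 ± 0.08 (adjusted p = 0.238 in edgeR). Male Aldh1l1 was at 23.99, 28.5, 26.2 and 26.2 CPM in IDch, within or just below the IS range, and male Gja1 at 427, 472, 470.1 and 427 CPM in IDch against 426, 477, 435 and 475 CPM in IS, which overlapped throughout. Aldh1l1 and Aqp4 stayed at the criterion when any 1 of the 16 libraries was left out. Gja1 left it in 7 of the 16 omissions (male IS replicates 1 and 3, male IDch replicates 2 and 3, female IS replicate 1 and female IDch replicates 1 and 2), at -0.18 in the case nearest to 0. At an adjusted p under 0.05 there were 0 of the 10, beside 0.362% of all genes, with 3 at an unadjusted p under 0.05 in edgeR and 0 in DESeq2 after adjustment.

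The fourth comparison asked what choline went with among formerly iron-deficient rats (IDch against ID), and shares no library with ISch against IS. In females the endfoot channel Aqp4 was higher in IDch, at 659, 649, 632 and 653 CPM in ID and 789, 894, 759 and 760.1 CPM in IDch. The lowest IDch rat, at 759 CPM, lay above the highest ID rat, at 659 CPM. On the log2 scale the difference was 0.30 ± 0.06 (SE), a rise of 23.1%, with adjusted p = 0.0240 in edgeR's quasi-likelihood test. Aldh1l1 was higher as well, at 20.4, 20.1, 19.2 and 22.2 CPM in ID and 24.4 to 28.7 CPM in IDch, also without overlap. Its log2 fold change was 0.36 ± 0.07 (SE), a rise of 28.1%, with adjusted p = 0.0346 in edgeR.

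Both genes had p = 0.029 in the exact permutation test and stayed at the criterion when any 1 library was left out, with log2 fold changes of 0.24 to 0.33 for Aqp4 and 0.31 to 0.40 for Aldh1l1. Their adjusted p was over 0.05 without any 1 of the ID libraries or IDch replicate 1, and that of Aldh1l1 also without IDch replicate 3. The highest adjusted p was then 0.0753 for Aqp4 and 0.104 for Aldh1l1. With thinned female counts it was 0.0197 for Aqp4 and 0.196 for Aldh1l1. Sox9 was lower in IDch, at 17.5, 18.8, 20.6 and 19.9 CPM against 22.8, 18.6, 26.5 and 27.8 CPM in ID. A single ID rat, replicate 2, lay within the IDch range. The log2 fold change was -0.32 ± 0.11 (SE), with adjusted p = 0.171 in edgeR's quasi-likelihood test, and Sox9 left the criterion without ID replicate 3 or 4, at -0.24 in the case nearest to 0.

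In all, 3 of 10 genes were at the criterion in female IDch against ID, 2 higher and 1 lower, where 12.7% of all genes were, and 2 of 10 had an adjusted p under 0.05, against 2.28% of all genes. Aldoc had a log2 fold change of 0.13 with an unadjusted p of 0.0454, under the fold limit. In the same libraries the marker sums of microglia and oligodendrocyte precursors were lower in IDch than in ID without overlap, and 1 gene of each of those lists was at the criterion, lower. The neuronal sums, 10250 to 10830 CPM in ID and 9166 to 10460 CPM in IDch, overlapped. Of the 8 neuronal genes, however, 0 had a positive log2 fold change, with a median of -0.08, and 0 were at the criterion. The endothelial sums overlapped too. Of the 5 endothelial genes, 0 had a positive log2 fold change. Endothelial Flt1 was lower at the criterion (-0.25, adjusted p = 0.165 in edgeR), as was Ttr of the choroid plexus (-1.69, adjusted p = 0.152 in edgeR). On the list of Ttr, 1 gene had a positive log2 fold change. Whether any of these markers has a part in the astrocyte values was not tested.

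In males Glul was higher in IDch than in ID, at 1095.0, 1141, 1016 and 999.9 CPM in ID and 1245, 1194, 1372 and 1229.9 CPM in IDch. The groups did not overlap. It amounted to a log2 fold change of 0.24 ± 0.06 (SE), a rise of 17.9%, with adjusted p = 0.0763 in edgeR's quasi-likelihood test and p = 0.029 in the exact permutation test. It left the fold limit, at 0.20, without IDch replicate 3. Aqp4 was lower in IDch, at 556, 739, 741 and 635 CPM against 867, 819.6, 787 and 719.5 CPM in ID, with 2 of 4 IDch rats inside the ID range. On the log2 scale the difference was -0.27 ± 0.09 (SE), with adjusted p = 0.144 in edgeR, and it left the fold limit, at -0.18, without IDch replicate 1.

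So 2 of the 10 genes were at the criterion in male IDch against ID, 1 in each direction, where 13% of all genes were. At an adjusted p under 0.05 edgeR gave 0 of the 10, against 1.28% of all genes, with 2 at an unadjusted p under 0.05, and DESeq2 gave 1 after adjustment (Glul, 0.25 with adjusted p = 0.0146). Without ID replicate 4, the library with choroid plexus transcripts, the number at the criterion was again 2. Aqp4 had a positive log2 fold change in females and a negative one in males for this pair. The sex term was not fitted for IDch against ID. Markers of other cell types were at the criterion in the same rats. The oligodendrocyte precursor sum was at 103.3 to 114.1 CPM in ID and 114.4 to 121.3 CPM in IDch, without overlap, and Cspg4 was at the criterion (log2 fold change 0.40, adjusted p = 0.0549 in edgeR). The other of the 2 precursor genes had a log2 fold change of -0.01. The oligodendrocyte sum was at 6960 to 8400 CPM in ID and 7955 to 9274 CPM in IDch, with Mbp at the criterion (0.29, adjusted p = 0.0712 in edgeR). Endothelial Esam (0.30) and Cldn5 (0.23) were higher and neuronal Snap25 lower (-0.24) at the criterion. Of the 8 neuronal genes, however, 5 had a positive log2 fold change, with a median of 0.02. Glul is also made by oligodendrocyte lineage cells, and the part of these markers in its value was not tested.

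**Figure D2:**
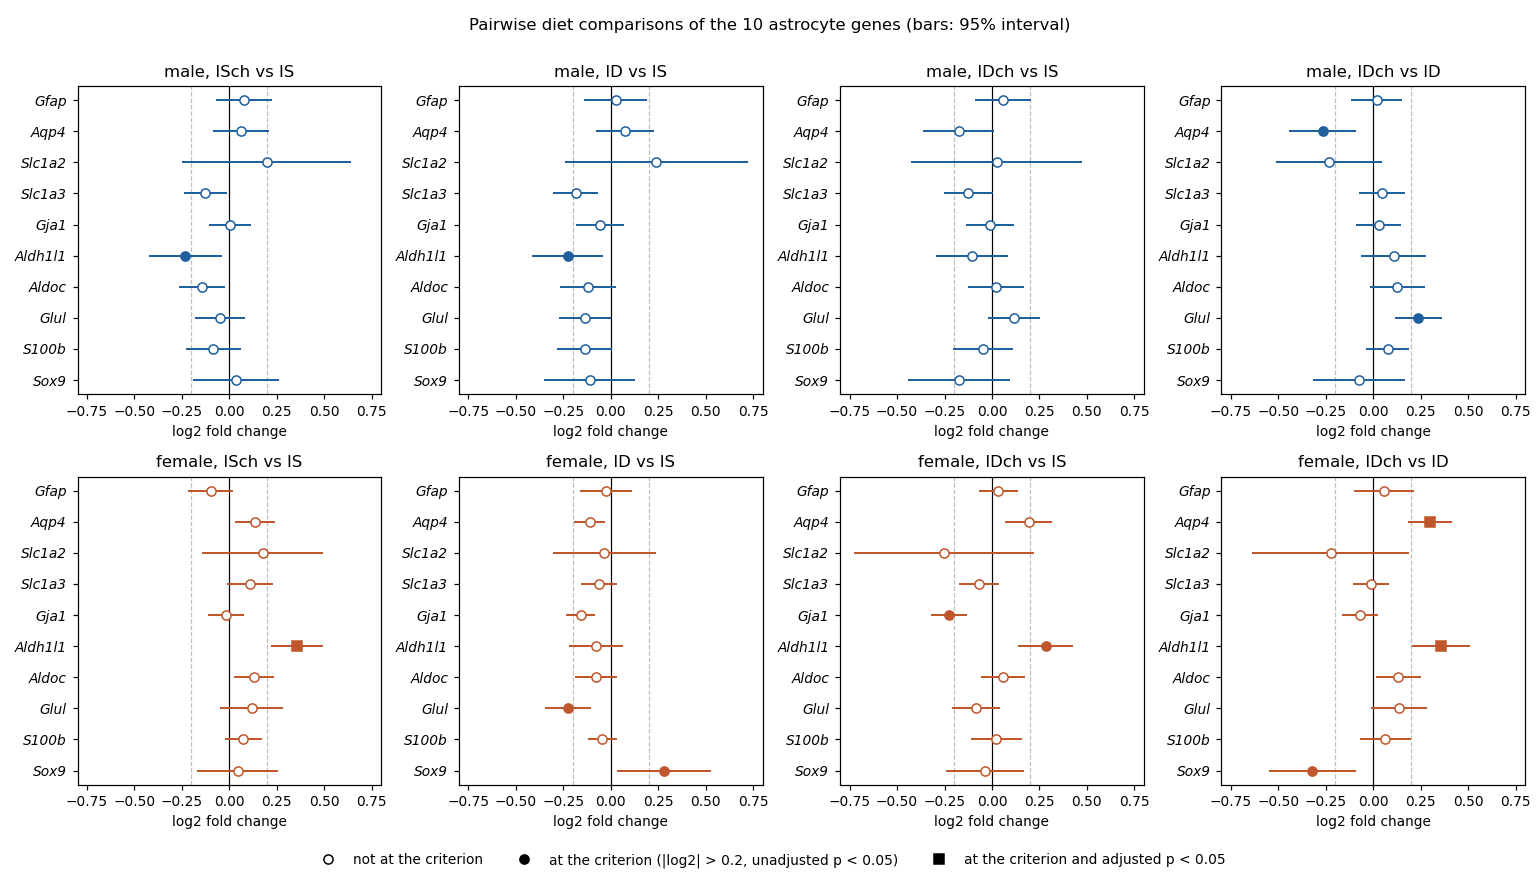
Log2 fold changes of the 10 genes (x axis) in the 8 pairwise diet comparisons, males above and females below, with 95% intervals as bars and dashed lines at the fold limit of 0.2. Filled markers are at the criterion, and squares also have an adjusted p under 0.05: female Aldh1l1 in ISch against IS (0.36) and female Aqp4 (0.30) and Aldh1l1 (0.36) in IDch against ID.

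The iron by choline interaction asks whether the choline difference was the same on both iron backgrounds, and is the IDch against ID log2 fold change minus the ISch against IS one. In males 4 of the 10 genes were at the criterion, beside 14.4% of all genes. Aldh1l1 had an interaction of 0.35 ± 0.12 (SE, adjusted p = 0.223 in edgeR's quasi-likelihood test), Glul of 0.30 ± 0.09 (adjusted p = 0.188 in edgeR), Aldoc of 0.28 ± 0.10 (adjusted p = 0.213 in edgeR) and Aqp4 of -0.32 ± 0.13 (adjusted p = 0.247 in edgeR). The first 3 encode metabolic enzymes, and for each of them the IDch mean was above the ID mean while the ISch mean was below the IS mean. Aldoc was at 770.0, 766, 772 and 652 CPM in ID and 876, 738, 862 and 774 CPM in IDch, and Glul at 1108, 1235, 1058 and 1259 CPM in IS and 1063, 1079, 1199 and 1161 CPM in ISch. Each of these pairs overlapped. Aqp4 was at 857, 718, 817 and 757 CPM in ISch, which overlapped the 652 to 811 CPM of IS. Markers of other cell types were at the criterion in the same fit. Endothelial Cldn5 (0.54) and Slc2a1 (0.22) and oligodendrocyte Mbp (0.36) and Mobp (0.25) were positive, Cldn5 and Mbp with adjusted p = 0.145 in edgeR. The interaction was positive for 5 of the 5 endothelial, 6 of the 8 oligodendrocyte and 5 of the 8 neuronal genes. The part of these markers in the values of the 10 genes was not tested.

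Aldh1l1, Glul, Aldoc and Aqp4 all stayed at the criterion when any 1 of the 16 male libraries was left out. At an adjusted p under 0.05 there were 0 of the 10, beside 0.00699% of all genes, while 5 had an unadjusted p under 0.05 in edgeR and DESeq2 gave 0 after adjustment. In females Sox9 alone of the 10 was at the criterion, at -0.36 ± 0.17 (SE, adjusted p = 0.528 in edgeR's quasi-likelihood test), where 7.33% of all genes were. Sox9 was at 19.3, 23.0, 18.2 and 20.9 CPM in ISch females, which overlapped IS, and 8 of the 16 omissions took it below the criterion, with values between -0.46 and -0.28. At an adjusted p under 0.05 there were 0 of the 10 in females, beside 0.00668% of all genes, with 2 at an unadjusted p under 0.05 in edgeR and 0 in DESeq2 after adjustment. For Aldh1l1 the female interaction was 0.00 with a 95% interval of -0.19 to 0.19, so its choline difference in females was of like size on both backgrounds within that interval.

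**Figure D3:**
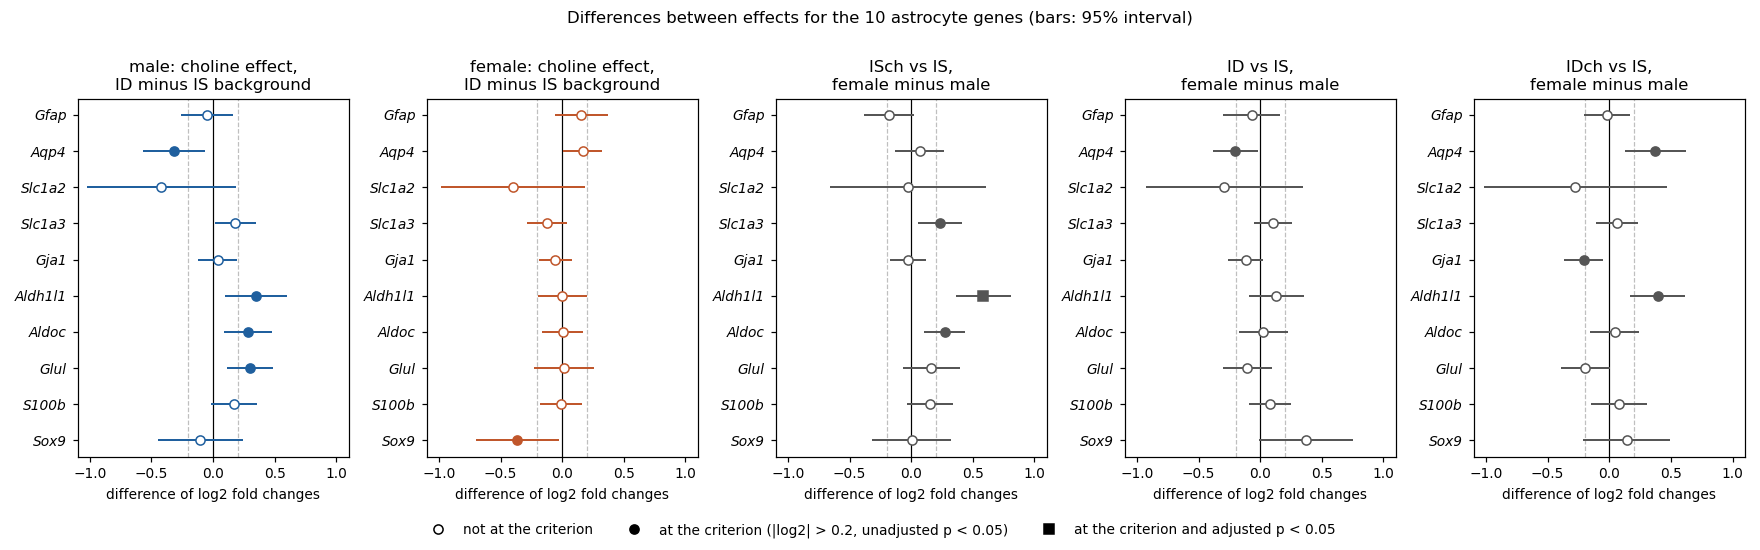
Differences between effects on the log2 scale (x axis) for the 10 genes, with 95% intervals as bars: the iron by choline interaction in males and in females, and the female minus male difference in ISch, ID and IDch against IS. Filled markers are at the criterion, and the single square with an adjusted p under 0.05 is Aldh1l1 in ISch against IS (0.59).

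The 10 genes did not rise and fall as a unit from rat to rat. The correlation of log2(CPM + 0.5), taken as deviations from diet group means over the 16 libraries of a sex, was positive for 31 of 45 pairs in males and 31 of 45 in females. The median Pearson's r was 0.19 in males (range -0.51 to 0.78) and 0.25 in females (range -0.79 to 0.86). The p-values come from an exact permutation test within diet groups, 2-sided, adjusted over the 45 pairs of a sex. In females 1 pair passed, Slc1a3 with Gja1, that is GLAST with connexin 43, at r = 0.86 (adjusted p = 0.0332) and Spearman's rho = 0.88 (adjusted p = 0.018) by exact permutation. It was at r = 0.73 without the 2 libraries farthest from the median of Slc1a3. The same pair had r = 0.64 and rho = 0.62 in males, with adjusted p = 0.391 and 0.485 by exact permutation.

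The highest male correlation was that of Aqp4 with Gja1, the endfoot channel with connexin 43 (r = 0.78, rho = 0.76, adjusted p = 0.129 and 0.158 by exact permutation, r = 0.73 without 2 libraries), and in females the same pair had r = -0.30 (adjusted p = 0.587 by exact permutation). The lowest female correlation was that of Slc1a2 with S100b (r = -0.79, rho = -0.75, adjusted p = 0.29 and 0.216 by exact permutation, r = -0.70 without 2 libraries). In males 0 of 45 pairs passed after adjustment by either coefficient. Glul had the highest median r with the other 9 genes in females (0.47), while Slc1a2 (-0.08) and Aqp4 (-0.16) had negative ones. In males the medians ran from 0.06 (Aldh1l1 and S100b) to 0.29 (Slc1a2).

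**Figure D4:**
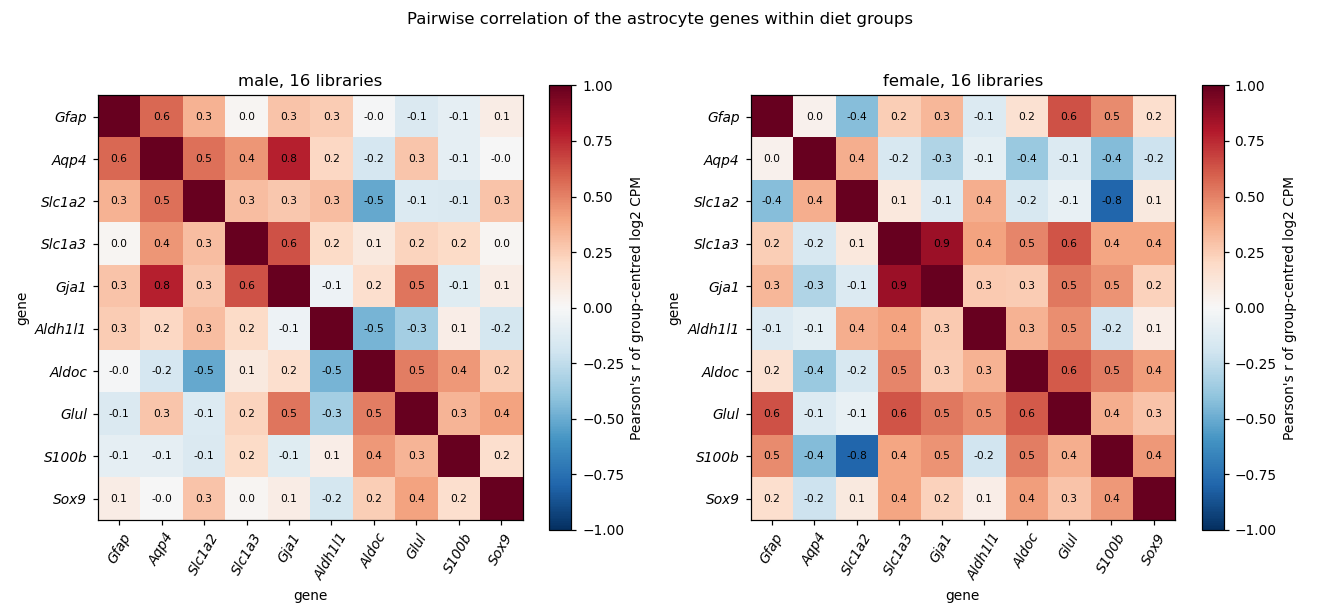
Pearson's r between the 10 genes (rows and columns) within diet groups, over 16 male libraries on the left and 16 female libraries on the right, on a colour scale from -1 to 1. Slc1a3 with Gja1 is the strongest positive pair in females (0.86), and Aqp4 with Gja1 in males (0.78).

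The genes outside the 10 that followed their mean most closely were ranked by the lower of their male and female r, again within diet groups, over 13851 genes. That mean was unscaled, so members that vary more between rats, Slc1a2 above all, weigh more in it. How far the ranked genes followed Slc1a2 rather than the other members was not tested. Among the 10 highest were Tspan12 (r = 0.78 in males and 0.83 in females), Gpm6b (0.77 and 0.81), Sfxn5 (0.81 and 0.77) and Camk2a (0.75 and 0.80), followed by Tbc1d16, LOC100911769, Scd2, Syt7 and Folh1, with a lower r of 0.72 to 0.67. The median r over all ranked genes was 0.01 in each sex. Camk2a is a neuronal kinase on the neuron list. The correlations are over 16 libraries per sex that share a sequencing batch, and are given without a test.

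A wider list of 47 astrocyte genes, for channels and transport, metabolism, secreted proteins, receptors and transcription regulators, had 45 genes in the tables, of which 44 were tested in males and 45 in females. In female ISch against IS the criterion was met upwards by 8 and downwards by 5 of them, and 5 passed after adjustment in edgeR's quasi-likelihood test, where 10.3% and 2.54% of all genes did. Id3, an inhibitor of basic helix-loop-helix factors, was at 34.8 ± 2.55 CPM against 25.6 ± 1.08 in IS (SD, n = 4; log2 fold change 0.44, adjusted p = 0.00896 in edgeR). Phgdh, the first enzyme of serine synthesis, was at 70.5 ± 6.17 against 93.9 ± 6.93 CPM (-0.41, adjusted p = 0.0159 in edgeR). Mt1 (0.68), Mt2A (0.55), Adora2b (-0.44) and Rorb (0.32) were at the criterion with adjusted p between 0.0593 and 0.258 in edgeR. The level of Mt1 was low, at 1.18 ± 0.30 CPM in ISch against 0.73 ± 0.15 in IS (SD, n = 4). Both directions were therefore present on the list beside the rise of Aldh1l1, and its median log2 fold change was 0.06 beside -0.00 for all genes.

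In female IDch against ID, 6 genes of the wider list were higher and 2 lower at the criterion, beside 12.7% of all genes. Mt1 (log2 fold change 0.81), Mt2A (0.48), Id3 (0.42), Pla2g7 (0.33) and Ndrg2 (0.28) were higher, and the phagocytosis bridge Mfge8 was lower (-0.29, 132 ± 8.61 against 161 ± 7.85 CPM, adjusted p = 0.0273 in edgeR's quasi-likelihood test). The level of Mt1 was low, at 1.08 ± 0.47 CPM in IDch against 0.62 ± 0.08 in ID (SD, n = 4), with adjusted p = 0.216 in edgeR. In female IDch against IS, where 8.98% of all genes were at the criterion, 5 were higher and 4 lower, among them Id3 (0.53, adjusted p = 0.0240 in edgeR), Kcnj16 (0.48), Id4 (0.26), Adora2b (-0.41), Phgdh (-0.39) and Mfge8 (-0.32, adjusted p = 0.0441 in edgeR). In female ID against IS, beside 6.47% of all genes, 2 were higher (Hes5, 0.65, and Sox2, 0.22) and 1 lower (Gjb6, connexin 30, -0.25), with 0 at an adjusted p under 0.05 in edgeR.

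In males the wider list had 1 gene higher and 4 lower at the criterion in ISch against IS, 1 and 3 in ID against IS, 1 and 3 in IDch against IS, and 5 and 3 in IDch against ID. The shares of all genes at the criterion were 8.06%, 4.62%, 6.12% and 13% in these comparisons. In ISch these were Slc4a4 (0.26), Mt2A (-0.46), Hes5 (-0.42), Phgdh (-0.29) and Cbs (-0.21), and in ID Slc4a4 (0.28), Cbs (-0.28), Mlc1 (-0.27) and Itih3 (-0.21). In IDch against IS they were Mfge8 (0.28), Pla2g7 (-0.29), Id3 (-0.28) and Phgdh (-0.28), and adjusted p-values in these 3 comparisons were between 0.312 and 0.786 in edgeR. In IDch against ID, Mfge8 was at 163 ± 10.5 CPM in IDch against 123 ± 13.6 in ID (SD, n = 4; log2 fold change 0.40, adjusted p = 0.0378 in edgeR's quasi-likelihood test), opposite in sign to the females. The secreted genes Htra1 (0.28), Sparc (0.24) and Itih3 (0.22) were higher with it, and Slc7a11 (-0.29) and Id4 (-0.28) lower. Without ID replicate 4 the counts in IDch against ID were 3 and 1 and those in ID against IS 0 and 2, and without IDch replicate 2 the counts were 6 and 4 in IDch against ID and 1 and 4 in IDch against IS. In the male interaction 11 genes of the wider list were positive and 1 negative at the criterion, beside 14.4% of all genes. The counts were 7 and 0 without ID replicate 4 and 9 and 3 without IDch replicate 2. The list was led by Mt2A (0.62), Mfge8 (0.51), Cbs (0.42), Hepacam (0.37), Slc4a4 (-0.36) and Gpr37l1 (0.29), with 0 at an adjusted p under 0.05 in edgeR. In the female interaction, beside 7.33% of all genes, there were 2 positive (Pla2g7, 0.61, and Slc7a10, 0.23) and 2 negative (Grm3, -0.36, and Slc7a11, -0.28).

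Of 15 genes known from reactive astrocytes, 14 were in the tables, and 13 or 14 were tested in each comparison. In female IDch against ID, 3 were higher and 1 lower at the criterion, where 12.7% of all genes were. Tnc, the matrix protein tenascin C, was at 18.7 ± 1.77 CPM in IDch against 12.8 ± 1.62 in ID (SD, n = 4; log2 fold change 0.55, adjusted p = 0.0260 in edgeR's quasi-likelihood test), and complement C3 at 19.8 ± 5.49 against 32.4 ± 2.56 CPM (-0.71, adjusted p = 0.0479 in edgeR). Hspb1 (0.38) and Cd44 (0.31) were the other two. C3 is also made by microglia, whose marker sum was lower in the same rats. In female IDch against IS, beside 8.98% of all genes, 4 were higher (Steap4 at 1.28, Tnc at 0.66 with adjusted p = 0.00837 in edgeR, Gbp2 at 0.46 and Fabp7 at 0.29) and 1 lower (C3, -0.47). In female ISch against IS, beside 10.3%, 2 were higher (Steap4, 1.41, and Tnc, 0.24) and 1 lower (Vim, -0.22). In males Hspb1 was higher (0.71) and Steap4 lower (-1.43) in ISch against IS, Steap4 (-1.14) and Fabp7 (-0.25) were lower in IDch against IS, and Steap4 (-0.77) and Cd44 (-0.46) were lower in IDch against ID, beside 8.06%, 6.12% and 13% of all genes. The count was 0 in ID against IS in either sex, where 4.62% of all genes were at the criterion in males and 6.47% in females.

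Steap4, a metalloreductase, had the largest fold changes on the reactive list in each of the 5 pairwise comparisons where it was at the criterion, but a low level. It was at 0.35 ± 0.10 CPM in IS females, 0.93 ± 0.31 in ISch females and 0.86 ± 0.36 in IDch females (SD, n = 4), and at 2.33 ± 0.61, 0.84 ± 0.67 and 1.08 ± 0.27 CPM in the same groups of males (SD, n = 4). Within either sex its adjusted p was 0.0639 or more in edgeR's quasi-likelihood test. The female minus male difference was 2.85 in ISch against IS (adjusted p = 0.0303 in edgeR) and 2.43 in IDch against IS (adjusted p = 0.0398 in edgeR), and here too sex and batch cannot be told apart.

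Gfap itself, the gene by which reactive astrocytes are usually recognised, had a log2 fold change between -0.10 and 0.08 in all 8 pairwise comparisons and was at the criterion in 0 of them, with 0 at an unadjusted p under 0.05 in edgeR's quasi-likelihood test.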

How the data were processed

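RNA from the whole hippocampus was sequenced in 32 rats, as paired reads of TruSeq libraries. The authors trimmed reads with Trimmomatic, checked them with FastQC, aligned them with HISAT2 to Rnor_6.0 and counted them per gene with featureCounts of Subread, per the labels' processing notes. The annotation release, the strand setting and the handling of reads with several matches are not given in the sources used here. The deposited values are raw counts per gene, 1 table per sex, and 0 columns were left unmapped. Libraries were grouped by the labelled sex and diet. Counts were scaled by TMM and tested in edgeR 4.0.16 (R 4.3.3) with glmQLFit and glmQLFTest after filterByExpr, on the 2 groups compared, on the 4 groups of a sex for the interaction, or on 16 libraries of both sexes for a sex by diet term. DESeq2 1.42.0, other scalings, no filter, a replicate block, a single fit of 4 groups, thinned female counts and the omission of each library were alternatives. The scripts were tested on simulated data. The 10 genes, the wider, reactive and other cell type lists and the rules for naming genes were chosen with earlier results of these data known. All members are named, as are wider-list genes at the criterion, at most 6 per pairwise comparison or interaction by size of fold change. Reactive-list genes and markers of other cell types were named after their values were seen. A gene named by these rules is not reported here. No 2 libraries agreed within sampling noise (48 pairs within groups, chi-square per gene of 2.02 or more). In females nothing says which rats shared a litter, and for the male RNA libraries the sampling of litters is not stated separately. The p-values therefore measure the spread between these samples. Correlations used log2 of CPM plus 0.5. Libraries with lower totals, mainly the male ones, give less precise values.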

Additional observations from a re-analysis of the deposited data

Results flagged for a closer look

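Of the 80 sets of 4 rats (10 genes in 8 groups), 4 held a rat whose gap to its nearest neighbour exceeded Dixon's 95% critical share of the whole range, which chance alone does in about 1 in 20 sets. Female IDch replicate 4 had 163.1 CPM of Slc1a2, against 355 to 369 in the other rats of its group, and the same rat had 1340 CPM of S100b against 1079 to 1122. Its oligodendrocyte sum was 9229 CPM against 7197 to 7732, and its neuronal sum 9166 CPM against 10220 to 10460. Its oligodendrocyte precursor sum was 104.6 CPM against 118.9 to 123, and its blood sum 68.08 CPM against 25.85 to 32.11. Its microglial and endothelial sums lay inside the range of the other rats. The part of other cell types in the 2 values was not tested. Male ID replicate 4, the library with choroid plexus transcripts, had 652.4 CPM of Aldoc against 766 to 772. Male ISch replicate 3 had 1143 CPM of S100b against 1036 to 1050.1.

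The choline difference depended on iron background at the criterion in males for Aqp4 (-0.32), Aldh1l1 (0.35), Aldoc (0.28) and Glul (0.30), and in females for Sox9 (-0.36), as interactions on the log2 scale. The female minus male difference was at the criterion in ISch against IS for Aldh1l1 (0.59), Aldoc (0.27) and Slc1a3 (0.23), in ID against IS for Aqp4 (-0.20), and in IDch against IS for Aldh1l1 (0.39), Aqp4 (0.37) and Gja1 (-0.21). Of these 12 differences, Aldh1l1 in ISch against IS was the 1 with an adjusted p under 0.05 in edgeR's quasi-likelihood test (0.0121), and for the sex differences sex and sequencing batch cannot be told apart.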

How the results depend on the processing

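The 24 member results at the criterion were refitted 436 times in all, kept their sign in each refit, stayed at the criterion in 378 and left it in 58. Of 10 genes, the number at the criterion was 0 with DESeq2 in male ISch against IS, male ID against IS and the ID sex difference, 0 and 1 without the male libraries with lettered names in ISch and IDch against IS, 0 with library size alone in the female interaction, 0 with RLE size factors in the ID sex difference, and 0 with thinned female counts in female IDch against IS. With no limit on the fold change it was 3 in male ISch, 2 in male ID, 3 in female ISch and 4 in female ID against IS, and 2 in the female interaction. The number with an adjusted p under 0.05 was 1 in male IDch against ID and 2 in female ID against IS, female IDch against IS and the ISch sex difference with DESeq2, 2 in female IDch against IS with 4 groups in one fit, and 0 in female ISch against IS and 1 in female IDch against ID with thinned female counts (to 8007907 reads). The cause of these shifts was not tested. The share of all genes at the criterion in each refit is not given in this section. The counts under different settings therefore describe the 10 genes alone.

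Replicate numbers did not pair the rats, as the correlation of same-numbered libraries had medians between -0.059 and 0.011. With a replicate block the number at the criterion was 1 in female ID against IS, 0 in the female interaction and 0 in the ID sex difference, and the number with an adjusted p under 0.05 was 0 in female ISch against IS, 1 in female IDch against ID and 0 in the ISch sex difference, where Aldh1l1 was at 0.0556.

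With 1 library left out at a time, the number at the criterion ran from 0 to 1 in male ISch, ID and IDch against IS and in the female interaction, from 1 to 3 in male IDch against ID, and from 0 to 2 in female ID against IS and in the ID sex difference. The number with an adjusted p under 0.05 ran from 0 to 1 in female ISch and IDch against IS, from 0 to 2 in female IDch against ID and from 1 to 2 in the ISch sex difference. The median pairwise correlation was between 0.15 and 0.25 in males and 0.14 and 0.25 in females over the settings tried, among them the omission of male IDch replicate 2, chosen after seeing the data, as were the list counts without that library and male ID replicate 4. Depth limits Sox9 and Aldh1l1 most, with as few as 55 and 101 counts in a male library.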
